A study of Mus musculus with 6 samples.

Results

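The 10 genes described here encode tubulins, 7 of the alpha class (Tuba1a, Tuba1b, Tuba1c, Tuba3a, Tuba3b, Tuba4a and Tuba8) and 3 of the beta class (Tubb2a, Tubb4b and Tubb5). They were taken by symbol from the 53700 genes of the deposited table, and the set was chosen by a measured value: Tuba3b had the largest estimated count of any gene in WT replicate 1, 36380 reads against 31851 for Ldhc, the germ-cell lactate dehydrogenase gene that came next. The assay was bulk RNA-seq of primary spermatocytes sorted on Hoechst fluorescence from testes of C57BL/6 mice, adult at 8 weeks. The WT group held 3 libraries of wild-type mice and the KO group 3 libraries of mice lacking circSry, a circular RNA made from the Sry locus. The labels do not say whether the libraries of a group came from separate animals, so a p-value measures the spread between these samples, which may be technical.

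Alpha- and beta-tubulin pair into the dimers that polymerise into microtubules. Male germ cells use microtubules for the meiotic spindle, for the manchette that shapes the spermatid head and for the axoneme of the flagellum. Mammals carry several genes for each class, whose proteins are alike except at the C-terminal tail, the acidic stretch on the microtubule surface where enzymes add glutamate and glycine chains and where the last tyrosine of most alpha-tubulins is removed and put back. In the mouse, Tuba3a and Tuba3b are the testis-rich alpha genes and Tubb4b the beta gene common in ciliated cells and testis. Tuba1a, Tuba1b and Tuba1c are the general alpha genes, Tuba4a lacks the terminal tyrosine codon, Tuba8 is the most divergent alpha gene, Tubb2a is rich in neurons and Tubb5 is expressed widely in dividing cells.

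The ends of the coding sequences of 8 of the genes are shown because the tail is where the isotypes differ most. Each line holds the last 18 codons and the stop codon of a GENCODE M21 transcript on GRCm38, 5′ to 3′, with in-frame GAA and GAG, the glutamate codons, in capitals.
Tuba1c: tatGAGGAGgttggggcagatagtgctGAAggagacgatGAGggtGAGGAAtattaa
Tuba3a: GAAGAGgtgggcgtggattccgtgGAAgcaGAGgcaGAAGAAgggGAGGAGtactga
Tuba3b: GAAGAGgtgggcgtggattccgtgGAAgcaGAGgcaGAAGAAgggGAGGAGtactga
Tuba4a: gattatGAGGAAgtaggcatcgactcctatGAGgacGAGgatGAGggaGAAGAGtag
Tuba8: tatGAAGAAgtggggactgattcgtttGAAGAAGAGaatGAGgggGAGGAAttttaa
Tubb2a: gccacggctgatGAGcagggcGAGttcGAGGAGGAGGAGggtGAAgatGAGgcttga
Tubb4b: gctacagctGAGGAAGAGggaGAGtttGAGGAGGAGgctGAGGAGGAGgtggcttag
Tubb5: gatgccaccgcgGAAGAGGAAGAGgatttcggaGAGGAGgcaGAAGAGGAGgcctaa
Tuba3a and Tuba3b ended in the same 57 bases, with 8 glutamate codons and a terminal tyrosine codon. Tuba1c also ended in a tyrosine codon, Tuba4a ended in a glutamate codon and Tuba8 in a phenylalanine codon. Tubb4b carried 10 glutamate codons in this stretch, against 9 in Tubb5 and 8 in Tubb2a.

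Near-identical copies limit how far reads can be assigned to one gene. Over the coding sequence Tuba3a and Tuba3b differed at 41 of 1353 aligned bases, an identity of 97.0%, and their longest identical run was 155 bases. Of all 75-base windows of the Tuba3a transcript, 19.9% also occurred in another gene's transcript, and for Tuba3b the figure was 18.9%. The windows shared with other transcripts made up 78.3% of Tuba1b, 70.4% of Tuba1a, 56.7% of Tuba1c, 43.2% of Tubb2a, 40.9% of Tubb4b and 13.5% of Tuba8, while Tubb5 had 0%. Tuba4a shared 47.2% with Stk16, a kinase gene that overlaps it. The sources used here give no read length, and the split of reads between such copies is the counting program's estimate, so these single-gene values are uncertain.

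On GRCm38 the annotation places Tuba3a at chr6:125278274-125286042 on the minus strand and Tuba3b at chr6:145615757-145621479 on the plus strand. Tuba8 lies on the same chromosome at chr6:121210696-121226854. Tuba1b (chr15:98931425-98934565), Tuba1a (chr15:98949837-98953703) and Tuba1c (chr15:99029891-99038110) are neighbours on chromosome 15. Tuba4a lies at chr1:75214228-75219865, Tubb4b at chr2:25222160-25224702, Tubb2a at chr13:34074274-34078007 and Tubb5 at chr17:35833921-35838306. The values are for whole genes, summed over their transcripts.

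The 6 libraries held 7400360 to 9294723 estimated counts. KO replicate 3 stood apart: its log2 CPM (counts scaled to library size with edgeR's TMM factors) correlated at 0.942 with WT replicate 1 but at 0.799 with KO replicate 2, whereas KO replicates 1 and 2 correlated at 0.954 and pairs of WT libraries at 0.954 to 0.984. Its correlation with KO replicate 1 was 0.893. Short transcripts were high relative to long ones in several libraries, most in KO replicate 3, where the median log2 difference from the WT mean was 1.21 in the fifth of genes with the shortest effective length and -0.86 in the fifth with the longest. The same medians were 0.65 and -0.44 in KO replicate 1 and 0.31 and -0.32 in WT replicate 1. All 18 spermatocyte markers were detected, at a summed 8868 to 9460 CPM in WT libraries and 6585 to 11020 CPM in KO libraries. Ldhc was the largest part of that sum, followed in WT means by Piwil1 (1202 CPM) and Mael (1038 CPM). Piwil1 measured 55.5, 74.7 and 832 CPM in KO. Of the 18 markers 14 had a negative log2 difference and 4 a positive one, with a median of -0.78. At an unadjusted edgeR p under 0.05, 6 were lower and 1 higher, against 9.84% and 13.6% of all genes tested. Without KO replicate 3 edgeR called 12 of the 18 markers lower and 2 higher (median -1.92), where 16.2% of all genes were lower and 18.5% higher. Gene-level Sry counts were 0 in all 6 libraries and do not measure the circular RNA, so the deletion could not be checked. Values without KO replicate 3 are given beside the results that turned on it. Because these are bulk samples, fewer cells of a type and less RNA per cell cannot be told apart.

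The wild-type libraries of sorted spermatocytes held 3 abundant tubulin transcripts and 7 scarce ones. They also held the spermatid markers described below at a summed 12000 to 15570 TPM and the Leydig markers at 1712 to 2342 TPM. The tubulin levels therefore cannot be assigned to spermatocytes alone. In TPM (a measure corrected for transcript length and library size), WT levels were 3093 ± 952 (SD, n = 3) for Tuba3b, 2835 ± 243 for Tuba3a and 1482 ± 90.3 for Tubb4b. Next came Tuba4a at 42.0 ± 5.89 TPM, Tuba1b at 35.1 ± 2.17 and Tuba8 at 27.0 ± 3.50. The lowest were Tuba1c at 14.0 ± 1.07 TPM, Tubb5 at 8.60 ± 3.86, Tuba1a at 6.86 ± 1.23 and Tubb2a at 4.57 ± 1.39. In this order of WT levels the ranges of neighbours overlapped for Tuba3b and Tuba3a, for Tuba4a and Tuba1b, and for Tubb5 and Tuba1a, so those neighbours were not separated by the replicate spread.

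**Figure D1:**
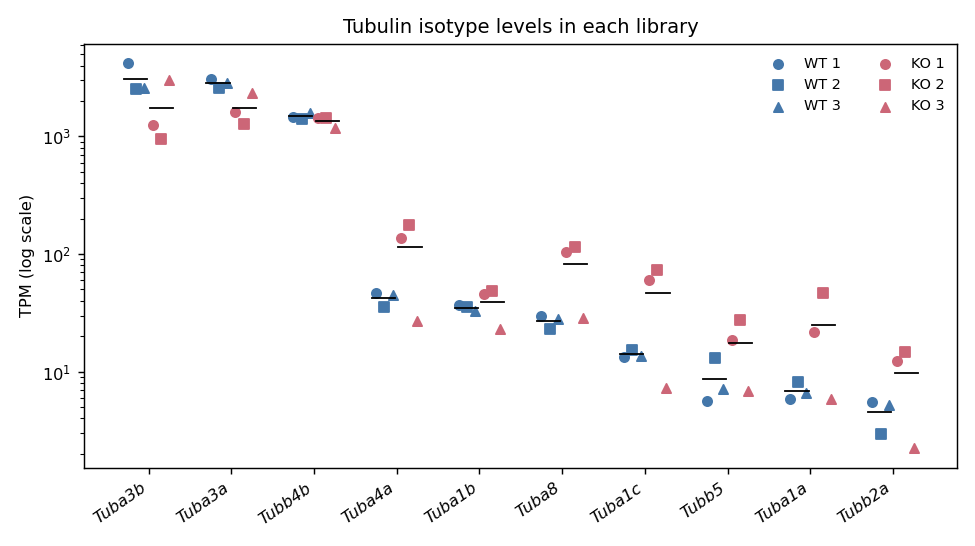
TPM on a log axis for the 10 tubulin genes, ordered by WT mean, with 1 point per library (blue for WT, red for KO, the shape giving the replicate) and a bar at each group mean. Tuba3b, Tuba3a and Tubb4b lie far above the others, and for the scarce genes KO replicates 1 and 2 lie above the WT points while KO replicate 3 lies near or below them.

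Tuba3b, the testis-rich alpha gene by which the set was chosen, measured 4193, 2529 and 2557 TPM in WT replicates 1 to 3 and 1244, 955 and 3038 TPM in KO replicates 1 to 3. Its level was lower in KO replicates 1 and 2 than in every WT library, and in KO replicate 3 it lay inside the WT range. In CPM it measured 5000, 2337 and 2564 in WT and 1636, 973 and 6126 in KO, and there KO replicate 3 was the highest library. By count it ranked 1, 10 and 7 among all genes in the WT libraries and 26, 63 and 2 in the KO libraries. It took 0.492% of all counts in WT replicate 1 and 0.517% in KO replicate 3. On the length-corrected TPM scale Tuba3b ranked 4, 20 and 14 in WT and 81, 94 and 33 in KO, so it was first in no library. Its edgeR log2 difference (KO over WT) was -0.18 ± 0.66 (SE), which is descriptive because WT replicate 1 chose the gene. Without that library the edgeR log2 difference was 0.30 ± 0.79 (adjusted p = 0.855), and without KO replicate 3 it was -1.39, again a description.

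Tuba3a, the second testis-rich alpha gene, measured 3083, 2597 and 2826 TPM in WT replicates 1 to 3 and 1621, 1266 and 2332 TPM in KO replicates 1 to 3. In TPM all 3 KO libraries lay below all 3 WT libraries, as did 21.7% of the 16829 genes tested. In CPM the same gene measured 3041, 1982 and 2336 in WT and 1763, 1069 and 3892 in KO. There KO replicate 3 was the highest library and the groups overlapped. The edgeR log2 difference in Tuba3a was -0.13 ± 0.48 (adjusted p = 0.894), and it turned positive without WT replicate 1 (0.09), without KO replicate 1 (0.02) or without KO replicate 2 (0.20). Without KO replicate 3 it was -0.84 ± 0.35 (edgeR adjusted p = 0.0833).

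Since reads of the pair can be split wrongly, their counts were also summed. Tuba3a and Tuba3b together measured 8040, 4320 and 4900 CPM in WT replicates 1 to 3 and 3399, 2042 and 10020 CPM in KO replicates 1 to 3. The KO libraries thus held both the lowest value and the highest one. The summed log2 difference by edgeR was -0.16 ± 0.58, a description, and without WT replicate 1 it was 0.21 ± 0.69 (adjusted p = 0.888). Without KO replicate 3 it was -1.13, and from TPM it was -0.85 on the log2(TPM + 1) scale. The ratio of Tuba3a to Tuba3b in TPM was 0.735, 1.03 and 1.11 in WT and 1.3, 1.33 and 0.768 in KO, so Tuba3b was the larger of the pair only in WT replicate 1 and KO replicate 3.

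Tubb4b, the beta gene of cilia and testis, measured 1452, 1410 and 1583 TPM in WT replicates 1 to 3 and 1436, 1433 and 1170 TPM in KO replicates 1 to 3. In TPM the groups overlapped and the spread was small. In CPM Tubb4b measured 1530, 1146 and 1398 in WT and 1669, 1292 and 2088 in KO. There the groups overlapped too, with a wider spread, and KO replicate 3 was above every WT library. The edgeR log2 difference of Tubb4b was 0.31 ± 0.31 (adjusted p = 0.576), but on the log2(TPM + 1) scale it was -0.14, so the direction turned with the scaling. The annotated pseudogene Tubb4b-ps1, which shares 33.7% of the Tubb4b windows and was looked at after its values were seen, measured 15.4, 8.05 and 11.2 CPM in WT and 46.6, 48.9 and 20.7 CPM in KO.

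Among the scarce alpha genes, Tuba8 measured 30.01, 23.2 and 27.8 TPM in WT replicates 1 to 3 and 104, 114 and 28.4 TPM in KO replicates 1 to 3. Tuba4a, the gene without a tyrosine codon at its end, measured 46.2, 35.3 and 44.4 TPM in WT and 137, 178 and 26.8 TPM in KO. For both genes KO replicates 1 and 2 were well above all WT libraries in TPM and KO replicate 3 was not. In CPM Tuba8 measured 47.1, 28.2 and 36.8 in WT and 180, 153 and 75.4 in KO, and on that scale the groups did not overlap. Nor did they for Tuba4a, at 36.7, 21.0 and 28.3 CPM in WT and 116, 113 and 39.4 CPM in KO. The edgeR log2 difference was 1.87 ± 0.41 for Tuba8 (adjusted p = 0.0877) and 1.64 ± 0.47 for Tuba4a (adjusted p = 0.105), neither past the threshold of 0.05. Stk16, which overlaps Tuba4a, measured 114, 94.0 and 88 CPM in WT and 66.6, 48.6 and 151 CPM in KO, so it was lower than WT in the 2 KO libraries in which Tuba4a was high.

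In TPM the general alpha genes showed the same split among the KO libraries. Tuba1a, known for its part in neurons, measured 5.82, 8.22 and 6.54 TPM in WT replicates 1 to 3 and 21.6, 46.7 and 5.86 TPM in KO replicates 1 to 3. Tuba1c measured 13.3, 15.2 and 13.5 TPM in WT and 60.0, 72.5 and 7.20 TPM in KO. Tuba1b, the general alpha gene of most cells, measured 37.0, 35.5 and 32.8 TPM in WT and 45.4, 48.3 and 23.0 TPM in KO. In TPM KO replicate 3 lay below the WT range for Tuba1b and Tuba1c and inside it for Tuba1a. In CPM it lay above every WT library for Tuba1a (12.0 against 6.64 to 7.70) and Tuba1b (45.3 against 30.4 to 39.7). For Tuba1c it lay inside the WT range in CPM. The edgeR log2 difference was 2.06 ± 0.51 for Tuba1a (adjusted p = 0.0944), 1.97 ± 0.58 for Tuba1c (adjusted p = 0.112) and 0.57 ± 0.30 for Tuba1b (adjusted p = 0.283). Summed over the 3 genes, whose transcripts share most of their sequence, counts were 64.0, 54.6 and 52.5 CPM in WT and 176, 179 and 73.8 CPM in KO. That sum had an edgeR log2 difference of 1.32 ± 0.39 (adjusted p = 0.112), and without KO replicate 3 one of 1.59 (adjusted p = 0.00164).

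Of the scarce beta genes, Tubb5, the isotype of dividing cells, measured 5.66, 13.0 and 7.17 TPM in WT replicates 1 to 3 and 18.5, 27.3 and 6.82 TPM in KO replicates 1 to 3. Tubb2a measured 5.53, 2.97 and 5.20 TPM in WT and 12.3, 14.7 and 2.22 TPM in KO. KO replicates 1 and 2 exceeded every WT library for both genes. In CPM KO replicate 3 also exceeded them for Tubb5 (21.6 against 10.4 to 15.5), but not for Tubb2a. In edgeR the log2 difference was 1.42 ± 0.37 for Tubb5 (adjusted p = 0.0961) and 1.29 ± 0.58 for Tubb2a (adjusted p = 0.224). On the log2(TPM + 1) scale, tested with limma, the differences of the scarce genes were smaller: 1.35 for Tuba8, 1.32 for Tuba1a, 1.15 for Tuba1c, 1.05 for Tuba4a, 0.83 for Tubb5, 0.69 for Tubb2a and 0.08 for Tuba1b. None of these 7 passed, with adjusted p-values of 0.186 to 0.922.

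With all 6 libraries, 0 of the 10 genes passed edgeR's quasi-likelihood test, as did 0% of the 16829 genes tested. For Tuba3b, by which the set was chosen, this is a description. Of the genes other than Tuba3b, 5 were higher in KO at an unadjusted p under 0.05 (Tuba1a, Tuba1c, Tuba4a, Tuba8 and Tubb5) and 0 lower. Of all genes tested 13.6% were higher and 9.84% lower. The median log2 difference of the 10 genes, a description that includes Tuba3b, was 1.35 and that of all genes tested 0.12. DESeq2 on the same counts called those 5 genes higher, with adjusted p-values of 0.00324 for Tuba8, 0.00772 for Tuba1a, 0.0206 for Tuba1c, 0.0252 for Tuba4a and 0.0256 for Tubb5, and it called 4.94% of all genes higher. Without a filter on low counts edgeR called 4 of the genes other than Tuba3b (Tuba1a, Tuba1c, Tuba4a and Tuba8), and 2.78% of all genes with counts.

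With the filter on low counts, the edgeR calls turned on KO replicate 3. Without it edgeR called 6 of the 9 genes other than Tuba3b, all 6 higher, where 34.7% of all genes passed, 18.5% higher and 16.2% lower. Tuba1a then rose by 2.39 on the log2 scale (edgeR adjusted p = 0.000617), Tuba1c by 2.37 (0.000306), Tuba8 by 2.11 (0.000809) and Tuba4a by 1.95 (0.0011). Tubb2a rose by 1.63 (edgeR adjusted p = 0.0094) and Tubb5 by 1.59 (0.00308). Tuba3a, Tuba1b and Tubb4b did not pass in that fit, with adjusted p-values of 0.0833, 0.122 and 0.863.

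On the CPM scale 5 of the 10 genes (Tuba1a, Tuba1b, Tuba4a, Tuba8 and Tubb5) had their lowest KO value above their highest WT value, a pattern of 14.1% of all genes tested. In TPM the count was 0 of 10, and 5.81% over all genes. KO replicates 1 and 2 lay above every WT library for 7 of the 10 genes on both scales, which 30.1% of genes tested did in CPM and 24.6% in TPM. They lay below every WT library for Tuba3a and Tuba3b, as 28.8% of genes did in CPM and 29.7% in TPM.

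**Figure D2:**
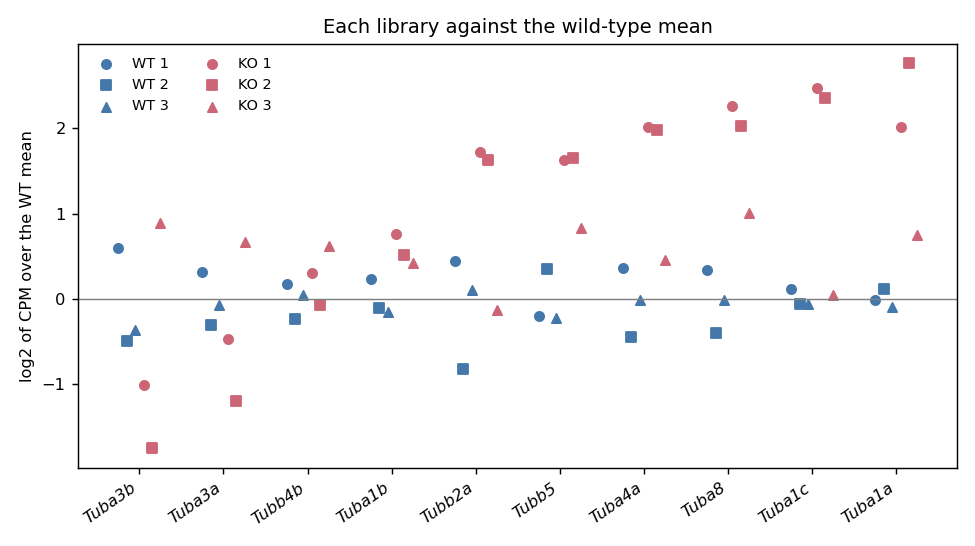
The log2 ratio of each library's CPM to the WT mean for the 10 genes, with 1 point per library (blue for WT, red for KO, the shape giving the replicate) and a line at no difference. KO replicates 1 and 2 are below the WT points for Tuba3b and Tuba3a and above them for the 7 genes from Tuba1b to Tuba1a. KO replicate 3 is above the WT points for 8 of the 10 genes, Tuba3b and Tuba3a among them, and inside the WT range for Tuba1c and Tubb2a.

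Shares within the alpha class do not depend on library scaling, although they do depend on the length correction. Tuba3a and Tuba3b made up 98.2%, 97.8% and 97.7% of the summed TPM of the 7 alpha genes in WT replicates 1 to 3 and 88.6%, 82.9% and 98.3% in KO replicates 1 to 3. The difference between the group means was -7.97 percentage points, and it ran from -12.2 to -4.43 when each library was left out, with no test because Tuba3b chose the set. The other 5 alpha genes held 1.79%, 2.24% and 2.27% in WT and 11.4%, 17.1% and 1.67% in KO, so KO replicates 1 and 2 were high and KO replicate 3 was the lowest of all 6 libraries. Tuba4a held the largest part of this remainder in KO replicates 1 and 2, 4.25% and 6.64% of the alpha sum, against 0.624% to 0.806% in WT. Tuba8 held 3.22% and 4.27% in KO replicates 1 and 2 and 0.520% in KO replicate 3, against 0.405% to 0.505% in WT.

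**Figure D3:**
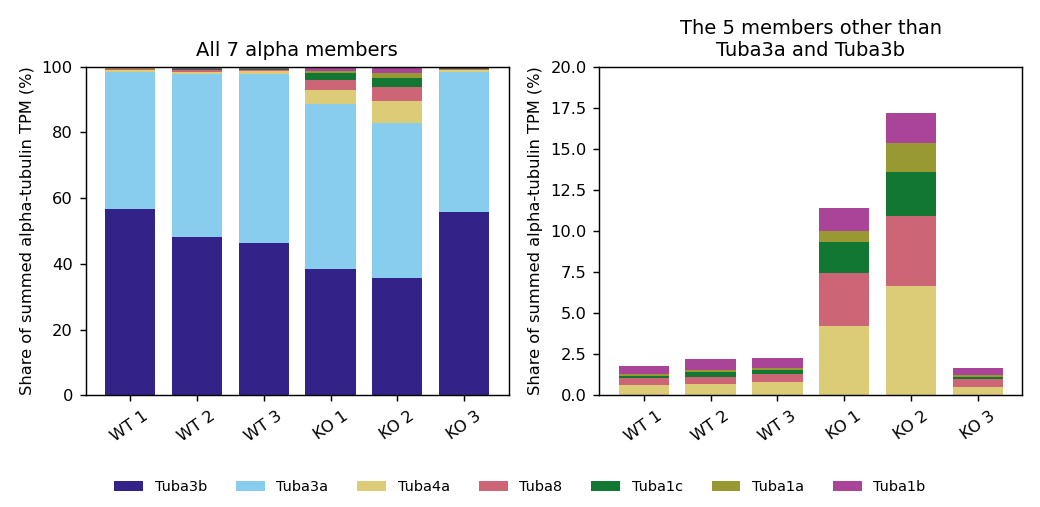
Stacked shares of the summed alpha-tubulin TPM in each library, for all 7 alpha genes (left, 0 to 100%) and enlarged for the 5 other than Tuba3a and Tuba3b (right, 0 to 20%). The remainder beside the Tuba3 pair is 11.4% and 17.1% in KO replicates 1 and 2 and at most 2.27% in the other 4 libraries.

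Within the beta class Tubb4b held 99.2%, 98.9% and 99.2% of the summed TPM of the 3 beta genes in WT and 97.9%, 97.2% and 99.2% in KO, a difference in means of -1.02 percentage points (exact two-sided permutation test, p = 0.3, n = 3 and 3). Tubb5 held 0.387%, 0.910% and 0.449% in WT and 1.26%, 1.85% and 0.579% in KO, a difference of 0.647 points (exact two-sided permutation test, p = 0.2). The log2 ratio of Tubb4b to Tubb5 was 8.00, 6.76 and 7.79 in WT and 6.28, 5.72 and 7.42 in KO (exact two-sided permutation test, p = 0.2). Groups of 3 libraries cannot give a p below 0.1 in this test. The summed alpha TPM was 5.06, 3.68 and 3.45 times the summed beta TPM in WT and 2.21, 1.82 and 4.63 times in KO. The numerator of that ratio is mostly the Tuba3 pair and the denominator mostly Tubb4b.

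Markers of other cell types also differed between the libraries. The 24 spermatid markers, genes switched on after meiosis, summed to 5809, 3427 and 4076 CPM in WT replicates 1 to 3. Their sums were 20930, 15820 and 11000 CPM in KO replicates 1 to 3. At an unadjusted edgeR p under 0.05, 22 of the 24 were higher in KO and 0 lower. Of all genes tested 13.6% were higher and 9.84% lower at that threshold. The 14 macrophage markers summed to 31.1 to 47.0 CPM in WT and 519, 309 and 52.8 CPM in KO. The 14 peritubular and endothelial markers summed to 192 to 283 CPM in WT and 725, 848 and 77.0 CPM in KO, and so were high in the 2 KO libraries with high scarce tubulins and low in KO replicate 3. The 17 Sertoli markers summed to 80.5 to 113 CPM in WT and 271 to 426 CPM in KO, the 10 Leydig markers to 625 to 905 and 261 to 619, and the 14 spermatogonia markers to 246 to 285 and 231 to 323. None of the listed markers was at 0 in all libraries. Their part in the tubulin values was not tested.

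**Figure D4:**
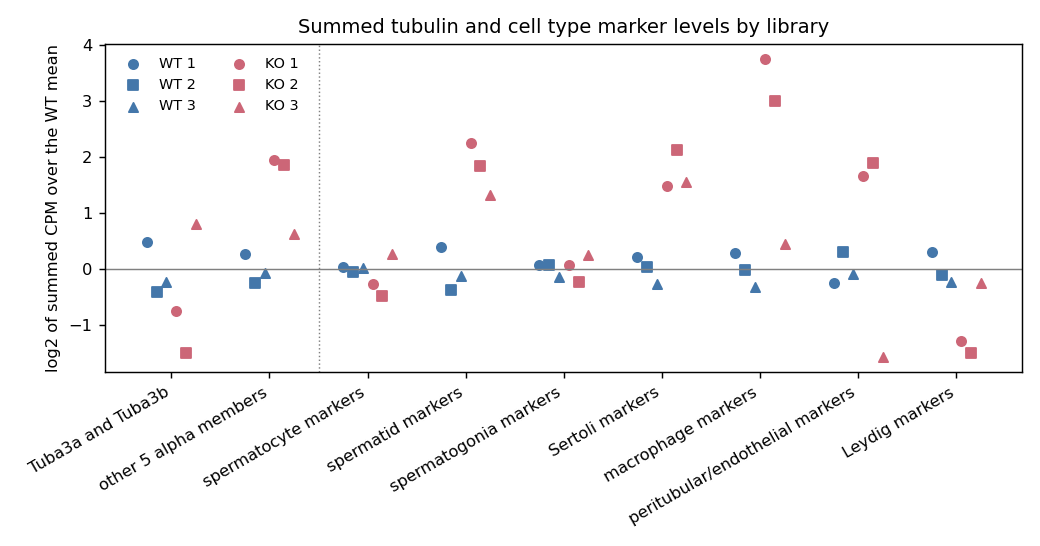
The log2 ratio of each library's summed CPM to the WT mean, for the Tuba3 pair, the other 5 alpha genes and 7 lists of cell type markers, with 1 point per library (blue for WT, red for KO). The spermatid, macrophage and peritubular or endothelial sums and the 5 scarce alpha genes are all highest in KO replicates 1 and 2. In KO replicate 3 these alpha genes (189 CPM), the spermatid sum (11000 CPM) and the macrophage sum (52.8 CPM) lie above the WT libraries. The peritubular or endothelial sum (77.0 CPM) lies below them. In TPM, not drawn, KO replicate 3 was below the WT libraries for the alpha genes (91.2 against 117 to 132) and the macrophage markers (26.3 against 33.4 to 43.1). For the spermatid markers it was above them in TPM as well (20810 against 12000 to 15570).

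Likeness of pattern was measured as the root mean square distance between log2(CPM + 1) values centred on each gene's mean, over the 6 libraries and 12245 genes, as a description. Nearest to Tuba3b were Bad, a pro-apoptotic BCL2-family gene (0.0904), Cdk10, a kinase gene (0.1), Mbd3, a chromatin gene of the NuRD complex (0.120), Park7 (0.120) and Ddrgk1 (0.120). The median distance from Tuba3b was 0.971, and that of its near copy Tuba3a was 0.335. Nearest to Tubb4b were Dnajb6, a co-chaperone gene (0.0334), 4931428L18Rik (0.0352) and Tram1, a translocon gene (0.0380), where the median was 0.602.

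The other genes of tubulin biology were read from fixed lists, and with all 6 libraries edgeR called 0 genes in any of them. At an unadjusted p under 0.05, 13.6% of all genes tested were higher in KO and 9.84% lower. Of the 6 tested genes among 10 other tubulins, 3 were higher and 0 lower at an unadjusted p under 0.05, with a median log2 difference of 0.56. Tubd1, the most abundant of them, encodes the delta-tubulin of centrioles and measured 52.0, 44.8 and 53.3 CPM in WT and 52.3, 33.5 and 72.1 CPM in KO (log2 difference 0.07 ± 0.35, edgeR adjusted p = 0.921). Tubb6, a broadly expressed beta gene and the next by TPM, measured 20.3, 12.1 and 18.4 CPM in WT and 40.4, 43.6 and 20.4 CPM in KO (log2 difference 1.04 ± 0.40, edgeR adjusted p = 0.174). DESeq2 called Tubb3, the neuronal beta gene, higher by 2.26 (adjusted p = 0.0472), an example chosen after its values were seen. Of the 10 genes of the gamma-tubulin ring complex, which nucleates microtubules, 0 were higher and 2 lower, with a median of -0.38. Its most abundant members were Mzt2 (0.91 ± 0.46, edgeR adjusted p = 0.261) and Cdk5rap2 (-0.57 ± 0.32, adjusted p = 0.313).

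For tubulin folding 23 genes were tested, those of the chaperonin, prefoldin and cofactors that make assembly-ready tubulin. At an unadjusted p under 0.05, 0 of the 23 were higher and 1 lower, against 13.6% and 9.84% of all genes tested. The median log2 difference of the list was 0.29. The chaperonin gene Tcp1 differed by 0.17 ± 0.37 (edgeR adjusted p = 0.807) and the prefoldin gene Pfdn5 by 0.82 ± 0.67 (adjusted p = 0.482). The direction of this list turned on KO replicate 3: with all libraries 17 of the 23 genes were positive, and without that library 17 were negative. In the fit without it the median was -0.27. There edgeR called 5 lower and 0 higher, where 16.2% of all genes were lower and 18.5% higher. Tcp1 was then at -0.09 and Pfdn5 at -0.25. With all libraries the single lower gene was Tbcel, a cofactor E-like gene, at -1.23 ± 0.34 (edgeR adjusted p = 0.0989, DESeq2 adjusted p = 0.024). DESeq2 called 3.58% of all genes lower. Of the genes that add or remove tubulin modifications, on the tail or, as with the deacetylase Sirt2, elsewhere in the protein, 27 were tested. At an unadjusted edgeR p under 0.05, 3 were higher and 2 lower, against 13.6% and 9.84% of all genes tested. The median of this list was 0.21. Agbl5, a carboxypeptidase gene that removes glutamates from the tail, measured 1127, 942 and 1160 CPM in WT and 649, 917 and 557 CPM in KO, so its groups did not overlap (-0.60 ± 0.31, edgeR adjusted p = 0.275), and 14.3% of all genes lay as fully below WT. Svbp, the partner of the enzymes that remove the terminal tyrosine, differed by 1.22 ± 0.48 (adjusted p = 0.179).

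DESeq2 called Ttll10, a glycylase gene, higher by 1.31 (adjusted p = 0.0439) and Agbl2, a deglutamylase gene, lower by 1.15 (adjusted p = 0.0435), both named after their values were seen. Of 22 tested genes for severing and stability, 0 were higher and 4 lower in edgeR at an unadjusted p under 0.05, with a median log2 difference of 0.13. At that threshold 13.6% of all genes tested were higher and 9.84% lower. The abundant Stmn1, a destabiliser gene, differed by 0.13 ± 0.79 (edgeR adjusted p = 0.941) and Map4, a stabiliser gene, by 0.03 ± 0.35 (adjusted p = 0.973). Without KO replicate 3 the median of the list was -0.04, and Stmn1 reversed, falling by 1.56 ± 0.41 (edgeR adjusted p = 0.0131). DESeq2 called 2 genes of this list lower, Clasp2, a plus-end stabiliser (adjusted p = 0.0203), and Fignl1, a relative of the severing enzyme fidgetin (adjusted p = 0.039). Of all genes it called 3.58% lower and 4.94% higher.

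**Figure D5:**
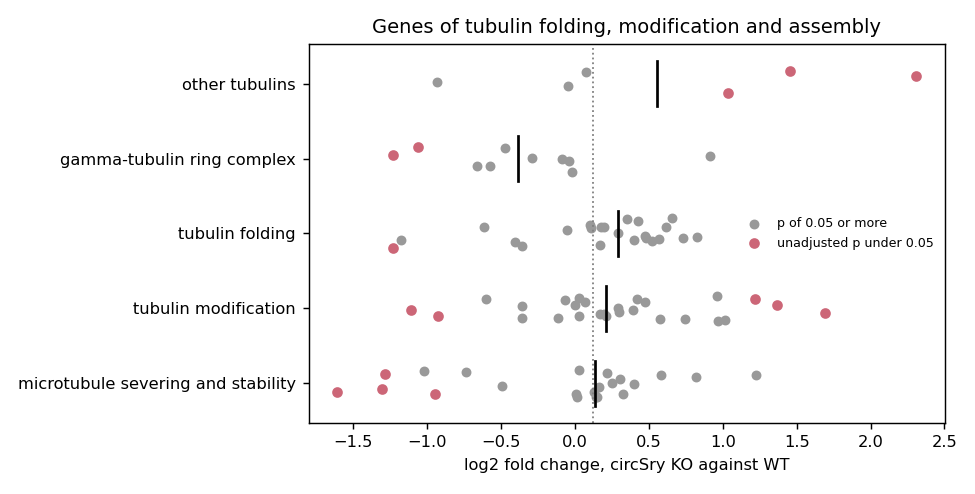
The edgeR log2 difference (KO over WT) of each tested gene in 5 lists of tubulin biology, with red points at an unadjusted p under 0.05, a bar at each list's median and a dotted line at 0.12, the median of all genes. List medians run from -0.38 for the gamma-tubulin ring complex to 0.56 for the other tubulins.

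The promoters of the 3 abundant genes are shown because Tuba3a and Tuba3b had like patterns across the libraries (distance 0.335). Tubb4b was further from Tuba3b (0.774) and from Tuba3a (0.467), while genes outside the set, such as Bad (0.0904), were nearer to Tuba3b. Each line holds the 250 bases before the RefSeq start site on GRCm38.p6, 5′ to 3′ on the gene's strand, with the letters CCAAT (searched as CCAAT or ATTGG) in capitals, at chr6:125286082-125286331 for Tuba3a, chr6:145615713-145615962 for Tuba3b and chr2:25224703-25224952 for Tubb4b.
Tuba3a: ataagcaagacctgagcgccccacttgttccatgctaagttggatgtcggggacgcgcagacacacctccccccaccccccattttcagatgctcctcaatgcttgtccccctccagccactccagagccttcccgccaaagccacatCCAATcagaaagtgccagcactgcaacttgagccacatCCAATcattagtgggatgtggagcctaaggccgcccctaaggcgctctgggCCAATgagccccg
Tuba3b: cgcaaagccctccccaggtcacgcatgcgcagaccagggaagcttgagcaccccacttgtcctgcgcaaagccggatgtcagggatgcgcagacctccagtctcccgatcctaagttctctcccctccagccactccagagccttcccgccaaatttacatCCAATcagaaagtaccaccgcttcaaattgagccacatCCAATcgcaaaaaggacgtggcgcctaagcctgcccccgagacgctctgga
Tubb4b: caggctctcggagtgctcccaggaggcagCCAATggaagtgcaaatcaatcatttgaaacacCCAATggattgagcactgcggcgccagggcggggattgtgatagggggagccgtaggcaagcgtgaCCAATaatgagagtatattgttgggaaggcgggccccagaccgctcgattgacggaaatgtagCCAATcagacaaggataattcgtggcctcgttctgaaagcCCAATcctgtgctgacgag
CCAAT, the letters bound by NF-Y, occurred 3 times before Tuba3a, 2 times before Tuba3b and 5 times before Tubb4b. Of the 32851 mouse promoters of the same length, 10.1% held it at least 2 times, 2.79% at least 3 times and 0.213% at least 5 times. Among the scarce genes it occurred 2 times before Tubb5, once each before Tuba1a and Tuba1c, and not in the windows of Tuba1b, Tuba4a, Tuba8 and Tubb2a. The RefSeq start site of Tuba3b lies inside the gene as GENCODE places it. Most of its window, with the 2 CCAAT matches, is therefore within that gene. The windows of Tuba1a and Tuba1b also lie mostly, and that of Tuba4a wholly, within the GENCODE genes. Motif counts of these genes depend on which start site is used. The cAMP response element TGACGTCA, found in 1.55% of promoters, and TATAAA, found in 12.4%, each occurred among the 10 genes only before Tubb2a, and the X-box of ciliary genes, found in 0.374%, occurred before none of the 10.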

How the data were processed

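Libraries were made from Trizol RNA of sorted spermatocytes with an Illumina TruSeq kit, per the labels' protocols, which does not mark strand. Each gene has an RSEM estimated count, a TPM and an FPKM in the deposited table, as named in its headers. STAR 2.7.0f, RSEM 1.3.2 and edgeR 3.28.1 appear in the submitters' processing notes, as do both GRCm39 and mm9, without saying which step used each. The authors made the TPM and FPKM values, and FPKM served here for effective lengths.

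Estimated counts were rounded and tested in R 4.3.3 with edgeR 4.0.16 (low counts removed by filterByExpr, TMM scaling, quasi-likelihood F test, Benjamini-Hochberg adjustment over 16829 genes, threshold 0.05); the SE is the log2 difference over the square root of F. DESeq2 1.42.0, limma 3.58.1 on log2(TPM + 1) and other settings were alternatives. The code was tested on data simulated with a spread of 15%, smaller than the spread relative to the mean of 0.453 that edgeR estimated here. That test does not show recovery at the spread of these data. Positions and transcripts are from GENCODE M21 on GRCm38 and promoters from RefSeq, which held all 10 genes; the build may differ from the authors'. The members, the gene lists and the rule for naming (the 2 most abundant genes of each list, and the 5 nearest patterns) were chosen with earlier results of these data known. The coding ends of the other two alpha genes are not reported here.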

Additional observations from a re-analysis of the deposited data

How the results depend on the processing

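With 3 libraries a group and KO replicate 3 unlike the other KO libraries, counts of calls depended on the tool and on that library. The genes called were 0 in edgeR with all libraries, 869 without a filter on low counts, 1614 with DESeq2, 6 on log2(TPM + 1) and 7 on log2(TPM + 0.1), and 0 to 6228 when each library was left out. Of the 10 tubulins, 4 were called without a filter, 5 with DESeq2 and 0 to 7 when each library was left out; the 7 include Tuba3b, whose call is no test because WT replicate 1 chose it. DESeq2 called 1 other tubulin, 1 folding gene, 2 modification genes and 2 severing or stability genes, and 8.52% of all genes. When each library was left out the range was 0 to 4 other tubulins, 0 to 2 genes of the gamma-tubulin ring complex, 0 to 5 folding, 0 to 8 modification and 0 to 6 severing or stability genes, each highest without KO replicate 3, where 34.7% of all genes were called. The summed Tuba3 pair ran from -1.13 to 0.22 on the log2 scale when each library was left out. Tuba3a ran from -0.84 to 0.20, and Tubb4b turned to -0.14 on both TPM scales. The limma fits on TPM, which also differ in tool and genes tested, moved the median of all genes by -0.38 with a pseudocount of 1 and -0.46 with 0.1, and limma-voom on the counts by -0.14. The cause of these changes was not tested. The labels do not say whether replicate numbers pair the samples. Correlations of same-numbered deviations from the group means were 0.0354, 0.334 and -0.272, and those of other pairs ran from -0.466 to 0.352. With 3 libraries a group, these values cannot decide it. A fit with the replicate number as a block called 0 genes and gave -0.46 for the Tuba3 pair. Counting error limits the scarcest genes most.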
